A study of Mus musculus with 6 samples.

Results

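The proteins of the cytosolic ribosome were followed here through their messenger RNAs in mouse cumulus granulosa cells, the somatic cells that surround the oocyte. Members were the genes whose symbol is Rpl or Rps with a number and at most one of the letters a, l or x, together with Rplp0, Rplp1, Rplp2 and Rpsa, and whose base mean exceeded 3.3. The base mean is the average normalised read count over all libraries. Of 24982 genes in the authors' deposited table, 82 had such a symbol, 5 of these were at or under the limit, and 1 above it, Rps4l, is annotated as a pseudogene. This left 76 members, 45 of the large subunit and 31 of the small subunit.

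The study sequenced poly(A) RNA of cumulus granulosa cells of Kun-Ming mice, an outbred stock, in 3 libraries labelled control and 3 labelled Atg5-KD. The Atg5-KD cells had been transfected with short hairpin RNAs against Atg5, whose product helps attach LC3 proteins to the autophagosome membrane. The protocol text describes both a NEBNext Ultra library preparation and one from amplified cDNA, and does not say which applied to which library. The part of the preparation in differences between the groups was not tested. The labels do not give what the control cells received, the age of the mice, the number of animals behind a library or whether libraries came from separate cultures. The p-values below therefore rest on the spread among these libraries alone, and part of it may be technical.

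The authors' deposited table gives 1 fold change, standard error and p-value per gene over all 6 libraries and no value per library. Group means below were computed from its base mean and fold change, and ± marks the standard error. A gene was called when the adjusted p of DESeq2's Wald test was under 0.05, adjusted by the Benjamini-Hochberg method over 14835 tested genes. Negative log2 fold changes mean a lower level in Atg5-KD, a direction taken from how the table is named. The targeted mRNA, Atg5, averaged 414 normalised counts in control and 397 in Atg5-KD, a log2 fold change of -0.06 ± 0.14 in the authors' deposited table (95% interval -0.34 to 0.21, adjusted p = 0.822 by DESeq2). A knockdown of the target was thus not detected in its mRNA, and the value does not check the labels or the direction. Atg5-KD below is the name of the libraries so labelled. Estimated depth was 16500000 to 17900000 counted reads in the control libraries and 11300000 to 12900000 in the Atg5-KD libraries.

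Cytosolic ribosomes consist of a small subunit, which holds the mRNA and decodes it, and a large subunit, which joins the amino acids and leads the new chain out through a tunnel. Mammalian ribosomal protein mRNAs begin with a C followed by a run of pyrimidines, the 5′ terminal oligopyrimidine (TOP) motif, through which mTORC1 and Larp1 control their translation. Ribosomes are also a cargo of autophagy, which degrades them in lysosomes when nutrients are short.

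The start regions of 8 members are shown because pyrimidine runs at the start are the feature that TOP mRNAs share. They were taken from the lower and the upper end of the fold changes of each subunit, among members with 1 promoter entry in RefSeq. Each window runs 5′ to 3′ over 60 bases, 40 before and 20 after the RefSeq start on build GRCm38.p6, and capitals mark its longest unbroken run of C or T.
Rplp0: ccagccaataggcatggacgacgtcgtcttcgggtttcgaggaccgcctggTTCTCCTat
Rpl28: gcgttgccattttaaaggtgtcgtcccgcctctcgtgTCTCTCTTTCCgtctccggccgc
Rpl27a: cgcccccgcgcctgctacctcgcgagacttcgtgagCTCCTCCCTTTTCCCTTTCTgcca
Rpl23: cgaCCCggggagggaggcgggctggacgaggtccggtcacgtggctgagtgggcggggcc
Rps26: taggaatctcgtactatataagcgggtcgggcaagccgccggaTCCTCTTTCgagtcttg
Rps2: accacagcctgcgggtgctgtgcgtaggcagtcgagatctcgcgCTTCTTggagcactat
Rps18: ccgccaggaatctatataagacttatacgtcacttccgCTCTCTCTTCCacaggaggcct
Rps25: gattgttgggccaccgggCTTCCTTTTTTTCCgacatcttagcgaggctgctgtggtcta
On the plus strand lie the windows of Rplp0 (chr5:115559427-115559486), Rpl28 (chr7:4792925-4792984), Rpl27a (chr7:109519155-109519214), Rps2 (chr17:24720023-24720082) and Rps25 (chr9:44407674-44407733). On the minus strand lie those of Rpl23 (chr11:97782420-97782479), Rps26 (chr10:128626487-128626546) and Rps18 (chr17:33955646-33955705). The longest run was 7 bases in Rplp0, 9 in Rps26 and 6 in Rps2, whose levels were lower in Atg5-KD. It was 20 bases in Rpl27a, 11 in Rps18 and 14 in Rps25, which were not called. Rpl28, which was called, had a run of 11 bases, and Rpl23, which was not, had none longer than 3 in this window. The marked runs do not all lie at the RefSeq start, since their first base had an offset of -22 in Rps25 and of 11 in Rplp0.

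Promoter sequences of 300 bases, 250 before to 50 after the start, were found in RefSeq for 56 of the 76 members, in 67 entries. A run of at least 8 C or T within 30 bases of the start stood in 50.7% of the member entries and in 22% of the entries of all tested genes. The letters CCGGAA, the core bound by ETS factors, stood on either strand in 47.8% of the member entries and 25.2% of the tested ones. GCCATNTT, part of the YY1 motif, stood in 22.4% and 7.66%, and TATAAA in 7.46% and 4.49%. Entries of the large and small subunit held the longer pyrimidine run at 53.8% and 46.4%. These are matches of letters and no measure of binding.

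Ribosomal protein mRNAs as a group lay lower in Atg5-KD. Of the 45 large subunit members, 13 fell and none rose, and of the 31 small subunit members, 10 fell and none rose. The share called lower was 28.9% in the large subunit and 32.3% in the small subunit, while 10.5% of all tested genes were called lower and 10.4% higher. Most members are abundant, so genes with a base mean of at least 1000 are the closer background, and of those 16.8% were called lower and 18.4% higher. At an unadjusted p under 0.05, 18 large and 14 small subunit members were lower and 0 were higher. At that limit 2357 of all 14835 tested genes were lower and 2317 higher, and 772 and 809 of the 3283 abundant ones. Under the stricter Benjamini-Yekutieli adjustment, 2 large and 2 small subunit members were called lower, beside 5.9% of all tested genes. The members' share was then near that of all tested genes.

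The median log2 fold change was -0.20 in the large subunit, with quartiles of -0.30 and -0.12, and -0.23 in the small subunit, with the same quartiles. Over all tested genes the median was 0.00, and over the other abundant genes it was 0.01. Values below zero were found for 42 of 45 large and 28 of 31 small subunit members. In bulk RNA, fewer cells of a type and less RNA per cell cannot be told apart.

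**Figure D1:**
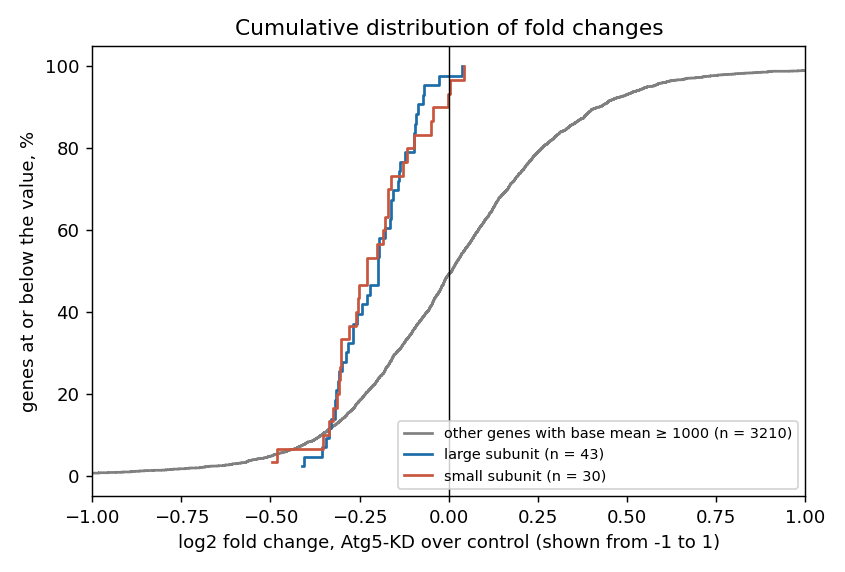
Cumulative share of genes (vertical axis, %) against log2 fold change, Atg5-KD over control (horizontal axis), for abundant members of the large subunit (n = 43), the small subunit (n = 30) and the other genes with a base mean of at least 1000 (n = 3210). Both subunit curves stand left of zero for most of their height, with medians of -0.20 and -0.23, while the other genes centre at 0.01.

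Among the 73 members with a base mean of at least 1000, the spread of the fold changes (SD 0.12) was as large as the median standard error of a single gene, 0.12. The 95% intervals of 70 of them held the members' median of -0.20, and 41 held 0. The 3 whose interval missed the median were Rplp0, Rps2 and Rps26, all lower than it. Among 73 such intervals a few would miss a value even if all members shared it. Whether these 3 fell more than the other members was not tested. The call divides members that lay close together, since the smallest fall among those called was -0.29 and the largest difference among those not called was -0.28. A member that was not called is thus not shown to differ from one that was.

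**Figure D2:**
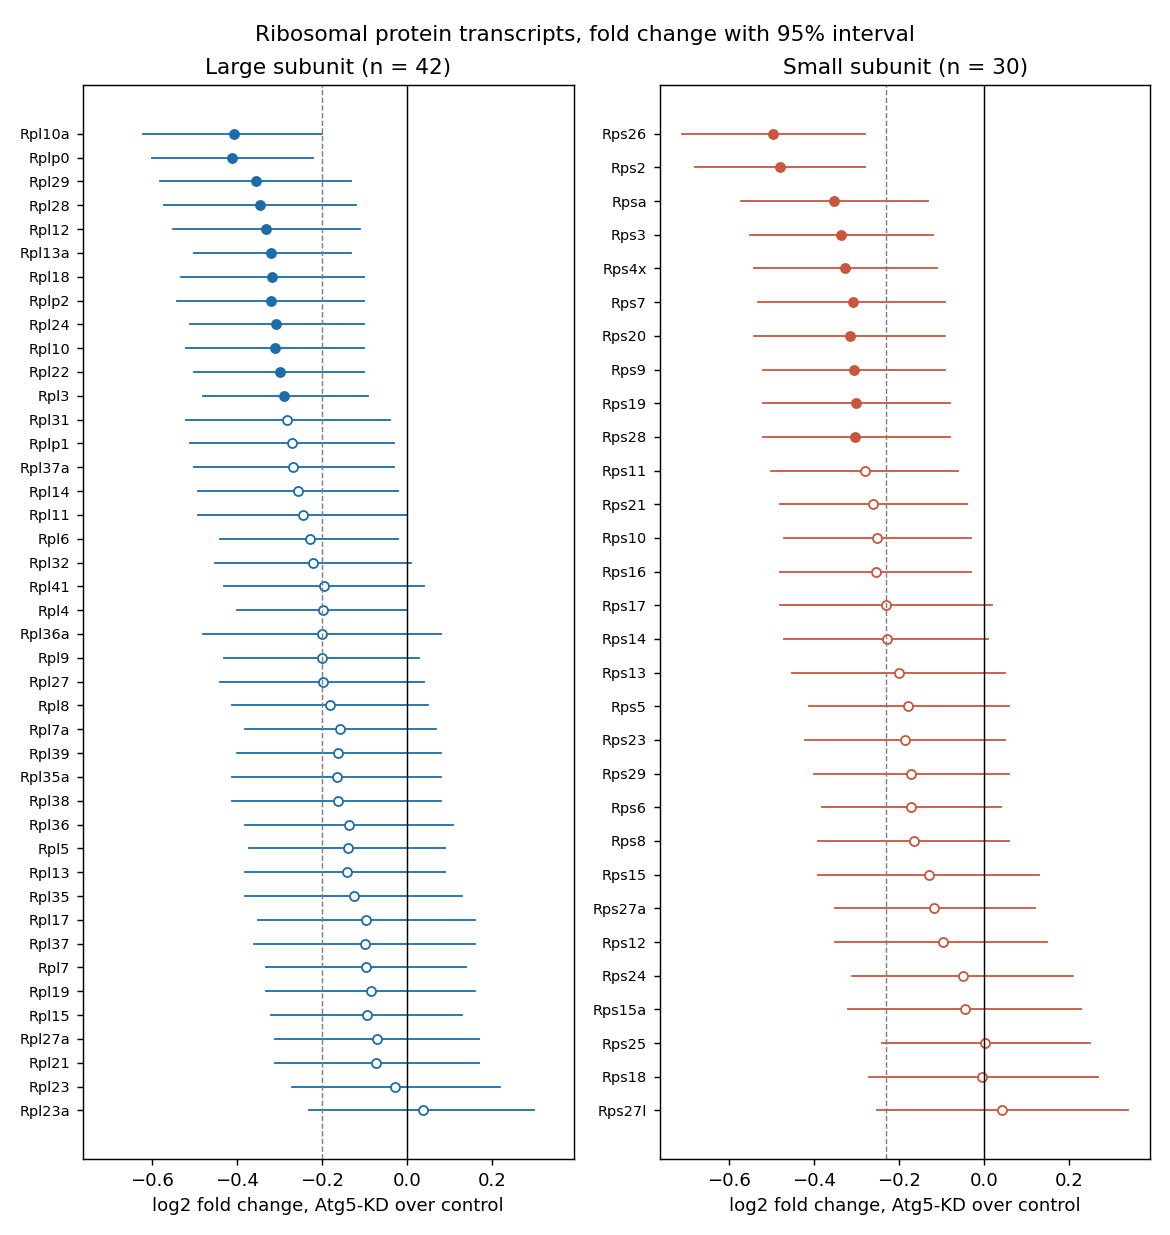
Log2 fold change (Atg5-KD over control) with its 95% interval for abundant members of the large (left, 42 of 43 drawn) and small subunit (right, n = 30); filled points passed an adjusted p of 0.05, the dashed line is the median of all abundant members of the subunit and the solid line is zero. Nearly all intervals overlap the dashed line, at -0.20 and -0.23.

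The amount of ribosomal protein mRNA can also be read as a sum. Large subunit members added up to 326315 normalised counts in control and 280689 in Atg5-KD, a log2 ratio of -0.22. Small subunit members added up to 196333 and 166917, a log2 ratio of -0.23. As a share of all normalised reads, both subunits together went from 4.01% to 2.79%. That share includes reads assigned to Rn45s, the gene of the ribosomal RNA precursor. They took 1.17% of reads in control and 17.89% in Atg5-KD (log2 fold change 4.24 ± 0.32). The counts do not tell the precursor from mature ribosomal RNA, and the part of the library preparation in this difference was not tested. Without Rn45s the members' share was 4.06% and 3.4%.

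In the large subunit, the stalk that recruits the elongation factors held the most abundant called member. Rplp0, the scaffold of the stalk, averaged 23726 normalised counts in control and 17830 in Atg5-KD. In the authors' deposited table it fell by 0.41 ± 0.10 on the log2 scale (adjusted p = 0.000281, DESeq2). Its stalk partner Rplp2 fell by 0.32 ± 0.11 (adjusted p = 0.0251), and Rpl12, at the base of the stalk, fell by 0.33 ± 0.11 (adjusted p = 0.0216). Rplp1, which pairs with Rplp2, stood at -0.27 ± 0.12 and was not called (adjusted p = 0.106). The stalk base and 2 of the 3 stalk proteins were thus called, and the remaining one had nearly the same value.

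Rpl10a, a protein of the flexible L1 stalk near the tRNA exit, went from 7289 to 5500 normalised counts, a log2 fold change of -0.41 ± 0.11 in the authors' deposited table (adjusted p = 0.00155). Rpl3, which reaches toward the peptidyl transferase centre, fell by 0.29 ± 0.10 (adjusted p = 0.0219). Rpl10, a late-joining protein beside the same centre, fell by 0.31 ± 0.11 (adjusted p = 0.0244). Rpl24, which forms a bridge to the small subunit, fell by 0.31 ± 0.10 (adjusted p = 0.0201). The level of each of these 4 was between 18.2% and 24.5% lower in Atg5-KD.

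Rpl13a, whose protein can leave the ribosome and repress inflammatory mRNAs in human monocytes, went from 13678 to 10964 normalised counts. Its log2 fold change was -0.32 ± 0.09 in the authors' deposited table (adjusted p = 0.00606). Rpl22, deleted in some T-cell leukaemias in humans, fell by 0.30 ± 0.10 (adjusted p = 0.0233). Rpl29, Rpl28 and Rpl18 of the large subunit were also called, between -0.36 and -0.32, with adjusted p from 0.0153 to 0.0232. No large subunit member stood further from zero than Rplp0 and Rpl10a.

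None of the members grouped here at the exit tunnel or its rim was called. The grouping is not a full list of proteins near the tunnel, and Rpl22, called above, was not in it. The tunnel proteins Rpl4, Rpl17 and Rpl39 stood at -0.20, -0.10 and -0.16. Those at its rim, Rpl19, Rpl23a, Rpl31 and Rpl35, stood between -0.28 and 0.04. Rpl5 and Rpl11, which form a particle with 5S rRNA that can bind Mdm2, stood at -0.14 ± 0.12 and -0.24 ± 0.13 (adjusted p = 0.441 and 0.164). These groups of members by place on the ribosome were drawn up with the values known, and none of them was tested as a group.

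The upper end of the large subunit was held by Rpl23a, Rpl30 and Rpl34. Rpl23a, the docking site of the signal recognition particle, averaged 11909 normalised counts in control and 12231 in Atg5-KD. In the authors' deposited table its log2 fold change was 0.04, with a 95% interval from -0.23 to 0.30 that also holds the members' median. Rpl34 and Rpl30 had base means of 63.6 and 4.77, and their intervals ran from -0.25 to 0.79 and from -1.71 to 1.94. No change of either was detectable at these counts.

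In the small subunit, the largest falls were at the channel through which the mRNA passes. Rps2, at the mRNA entry, averaged 10836 normalised counts in control and 7768 in Atg5-KD. In the authors' deposited table it fell by 0.48 ± 0.10 on the log2 scale (adjusted p = 3.67e-05, DESeq2). Rps3, its neighbour at the entry, fell by 0.34 ± 0.11 (adjusted p = 0.0155). Both entry proteins were called, with levels 28.3% and 20.8% lower in Atg5-KD.

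At the mRNA exit, Rps26, which touches the mRNA upstream of the start codon, went from 4131 to 2931 normalised counts. Its log2 fold change of -0.49 ± 0.11 in the authors' deposited table was the lowest of all 76 members (adjusted p = 8.07e-05). Rpsa, which also acts as a laminin receptor, fell by 0.35 ± 0.11 (adjusted p = 0.012), and Rps28 fell by 0.30 ± 0.11 (adjusted p = 0.0356). All 3 exit proteins in the list were called.

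Among the other called small subunit members, Rps4x fell by 0.33 ± 0.11 in the authors' deposited table (adjusted p = 0.0167). Rps20 and Rps7 fell by 0.31 and 0.31 (adjusted p = 0.0352 and 0.0354), and Rps9 and Rps19 fell by 0.30 and 0.30 (adjusted p = 0.0287 and 0.039). Rps19 is the gene most often mutated in Diamond-Blackfan anaemia in humans, and Rps7 can bind Mdm2. Rps6, the protein that S6 kinases phosphorylate, stood at -0.17 ± 0.11 and was not called (adjusted p = 0.282).

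Several abundant small subunit members stood at zero. Rps18 averaged 4993 and 4981 normalised counts in control and Atg5-KD, and Rps25, which some viral entry sites need for initiation, averaged 5311 and 5327. Their 95% intervals in the authors' deposited table ran from -0.27 to 0.27 and from -0.24 to 0.25. Rps27l, a paralog of Rps27 induced by p53, stood at 0.04 ± 0.15, while Rps27 itself, with a base mean of 23.6, stood at 0.39 ± 0.41. None of these 4 was called, and each interval also held the small subunit's median.

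**Figure D3:**
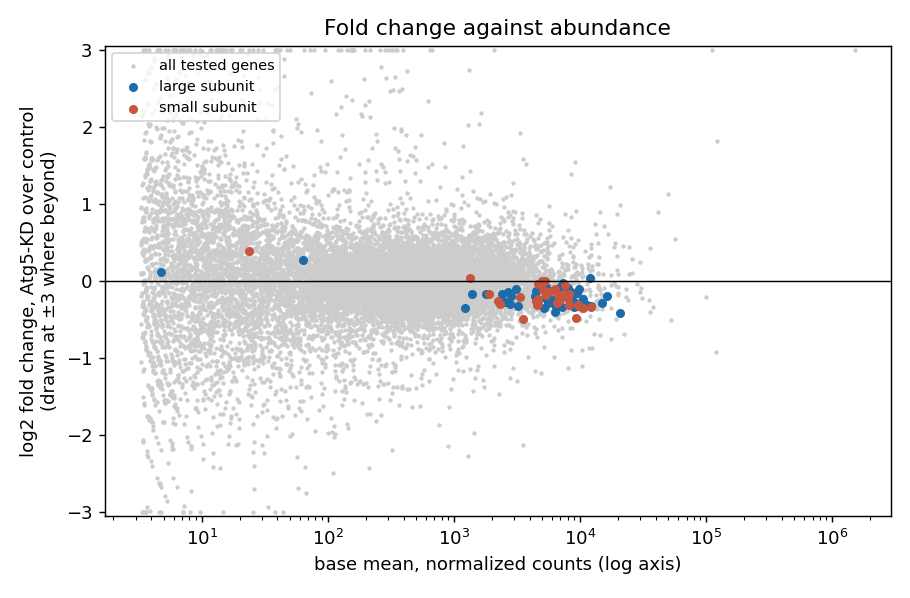
Log2 fold change, Atg5-KD over control, against base mean on a log axis (normalised counts) for all tested genes (grey) and for members of the large (blue) and small (red) subunit. All but 3 members stand at or above a base mean of 1000, most of them slightly below zero.

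Levels differed widely between members. Per kilobase of transcript, the base mean was highest for Rpl23a at 21553 normalised counts, followed by Rplp1 at 17866 and Rplp0 at 15300. Rpl30, Rps27 and Rpl34 stood lowest, at 8.37, 68.4 and 132, and no other member was under 909. Rpl26, a protein of the large subunit, was listed at 0 in the authors' deposited table and so was no member. For Rps15a and Rps20 the annotated transcripts are several times longer than the coding sequence, so their levels per kilobase are understated.

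Most members have near-identical copies elsewhere in the genome. In the GENCODE vM21 annotation, 71 of 76 had at least 1 pseudogene transcript with 95% identity over 80% of the coding sequence, and 51 had one at 99%. Rpl30 had 12 such copies at 95% identity, Rpl34 had 5, Rps27 had 3 and Rpl26 had 6, against 56 for Rpl21, whose base mean was 5349. The labels do not say how reads shared with copies were counted, so levels of members with copies are uncertain, and the part of copies in the low levels was not tested. Abundant members with no copy at 99% had a median of -0.26 in the large subunit (11 members) and -0.24 in the small subunit (14 members). Abundant members with such a copy had medians of -0.20 and -0.21, over 32 and 16 members.

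A small nucleolar RNA gene lies within 29 members, on the same strand. Abundant members of the large subunit with such a gene had a median of -0.16 (n = 19) and those without one -0.22 (n = 24). In the small subunit the order was the other way, -0.28 (n = 9) and -0.18 (n = 21). Members lie on 19 chromosomes.

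Across the abundant genes the fold change moved with base composition. Over 3273 genes with a base mean of at least 1000, Spearman's rho between log2 fold change and GC content was -0.52 (Pearson's r -0.42). Over the 73 abundant members it was -0.31 (r -0.32). Longer transcripts went with higher fold changes over the abundant genes (rho 0.35), but not over the members (rho -0.14). These are descriptions over genes, which share the same 6 libraries. Members had a median GC content of 51.8%, against 50.6% for all tested genes, and a median transcript of 751 bases, against 2748.

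When the trend with GC content and length was taken out of all tested genes, the fold change it gave for members had a median of -0.02 in the large and 0.03 in the small subunit. After the step 43 of 45 and 29 of 31 members were below zero, with members crossing zero both ways (Rps25 went to -0.17, Rps18 to 0.01), and 7 large and 7 small subunit members were called. Of these, 6 and 6 were among those called without the step. After the same step 7.48% of 14680 genes were called lower and 6.29% higher. Which members passed depended on the transcript taken to stand for a gene, since with either of 2 other choices of transcript the counts were 8 and 9. Rplp0, Rpl10a, Rps2 and Rps26 were still called with the trend taken out. Rpl12, Rpl13a, Rpl29, Rpl3, Rpl18 and Rpl28 were not, at -0.30, -0.25, -0.24, -0.24, -0.19 and -0.15. Nor were Rps7, Rps9, Rpsa and Rps19, at -0.26, -0.25, -0.20 and -0.15.

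**Figure D4:**
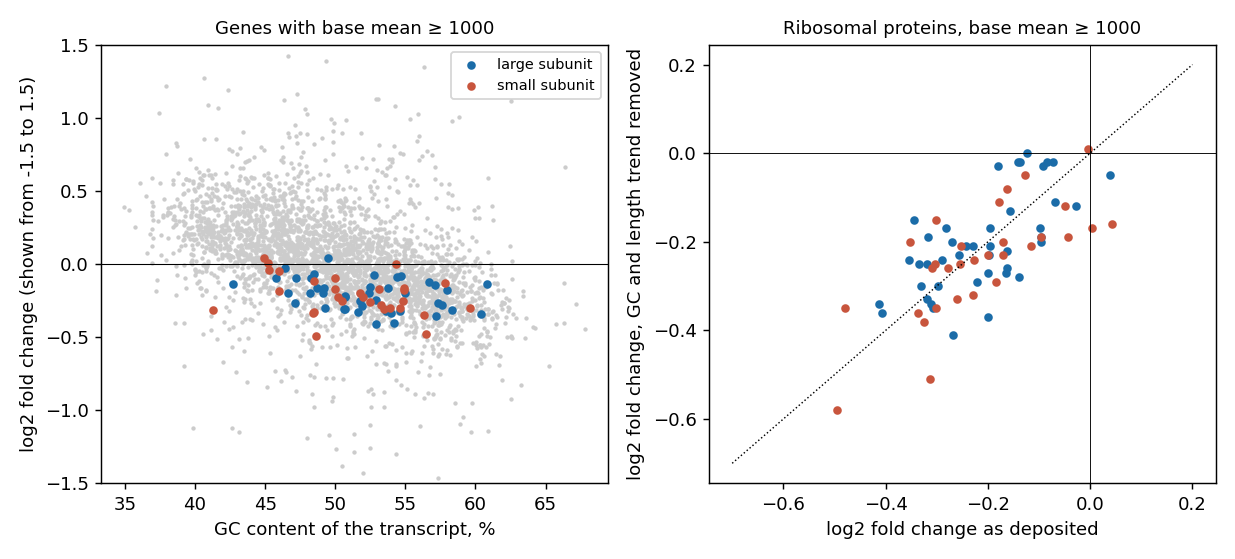
Left, log2 fold change against the GC content of the transcript (%) for genes with a base mean of at least 1000 (grey) and for members of the large (blue) and small (red) subunit. Right, the members' log2 fold change after the GC and length trend was removed against the deposited value, with the line of equality dotted; most stay below zero.

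The counts depend on the scaling. If libraries are scaled to all reads, Rn45s included, every log2 fold change shifts by -0.30, and the median of the large and small subunit becomes -0.50 and -0.53. Of all tested genes, 38.7% are then called lower and 3.6% higher, beside 42 of 45 large and 28 of 31 small subunit members. Since the shift is the same for every gene, the distance between members and other genes is unchanged by construction.

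Ribosomal proteins whose symbols fall outside the rule had similar values. Of 7 tested, 2 fell and 0 rose, and the median was -0.25. The background for this and the lists that follow is 10.5% of all tested genes called lower and 10.4% higher. Rpl22l1, the paralog of Rpl22, stood at -0.48 ± 0.14 in the authors' deposited table (adjusted p = 0.00549), and Rps3a1 at -0.35 ± 0.12 (adjusted p = 0.02). Fau, which encodes a fusion of a ubiquitin-like protein with a ribosomal protein, stood at -0.27 and Rack1 at -0.24, and neither was called. Rpl7l1, a paralog with a part in ribosome assembly, stood at 0.03.

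Of 7 elongation factors tested, 3 fell and 0 rose, with a median of -0.24. Eef2, which moves the ribosome along the mRNA, fell by 0.51 ± 0.08 (adjusted p = 2.88e-08, DESeq2, in the authors' deposited table). Eef1g and Eef1b2, subunits of the exchange factor of Eef1a, fell by 0.39 and 0.32 (adjusted p = 0.00078 and 0.024). Eef1a1, which brings aminoacyl-tRNA to the ribosome, stood at -0.20 ± 0.09 and was not called (adjusted p = 0.102).

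Of 36 initiation factors tested, 2 fell and 2 rose, with a median of -0.02. Eif3f and Eif3l, subunits of the factor that holds the small subunit, fell by 0.40 and 0.36 in the authors' deposited table (adjusted p = 0.00094 and 0.00173). Eif3a, the scaffold of that factor, rose by 0.31 ± 0.09 (adjusted p = 0.00326), and Eif5 rose by 0.25 ± 0.08 (adjusted p = 0.017). Among 6 genes of termination and recycling, 0 fell and 3 rose, with a median of 0.16. These were Mcts1 at 0.43, Etf1, which reads stop codons, at 0.26 and Abce1, which splits the subunits, at 0.24 (adjusted p = 0.0246, 0.0192 and 0.0389). The 3 higher calls of that list were lost when the GC and length trend was removed, and so were those of Eif3a and Eif5. Scaled to all reads, Mcts1, Etf1 and Abce1 were not called (0.13, -0.04 and -0.06), and the other members of the list, Eif2d, Denr and Gspt1, were called lower (-0.44, -0.29 and -0.21).

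A list of 13 other mRNAs and host transcripts known to start with a TOP motif was mixed, with 2 lower, 1 higher and a median of -0.03. It holds no elongation or initiation factors, which were counted above whatever their start, so it does not stand for all TOP mRNAs outside the ribosome. Nap1l1, a histone chaperone, fell by 0.38 and Pabpc1, the poly(A)-binding protein, by 0.30 in the authors' deposited table (adjusted p = 0.00216 and 0.00946). Snhg5, a host of small nucleolar RNAs, rose by 0.36 (adjusted p = 0.0336). That call was lost with the trend removed (0.18). Tpt1, the most abundant of them, stood at -0.03 ± 0.11.

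**Figure D5:**
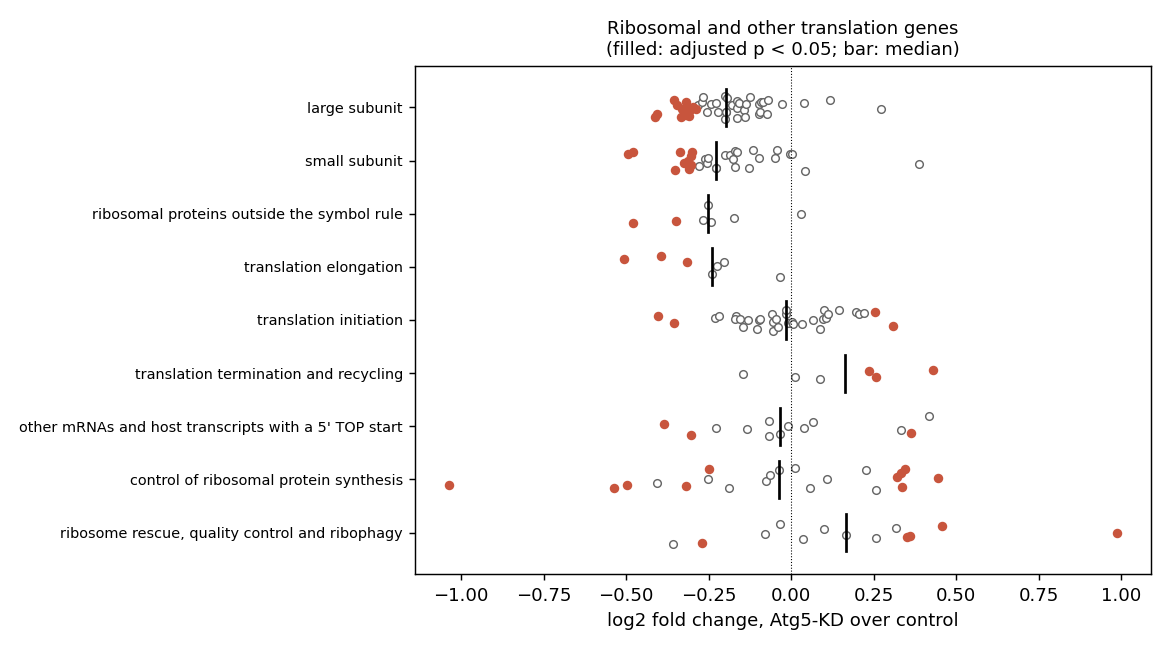
Log2 fold change (Atg5-KD over control, horizontal axis) of each tested gene in the lists of ribosomal and translation genes (vertical axis); filled points passed an adjusted p of 0.05 and bars mark list medians. Ribosomal proteins and elongation factors have medians from -0.20 to -0.25. The medians of initiation factors and of the list of other TOP transcripts, which holds no translation factors, stand near zero.

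Among 21 genes that control ribosomal protein synthesis, 5 fell and 5 rose. Mycn fell by 1.04 ± 0.28 and Myc by 0.25 ± 0.09 in the authors' deposited table (adjusted p = 0.00173 and 0.0398), and both encode transcription factors that drive ribosome genes. Eif4ebp1, which holds back initiation when mTORC1 is off, fell by 0.54 ± 0.10 (adjusted p = 6.98e-07), and Akt1s1, an mTORC1 subunit, fell by 0.50 ± 0.11 (adjusted p = 0.000127). Larp4, a binder of poly(A) tails, rose by 0.44 ± 0.12 (adjusted p = 0.00159), the kinase Mtor by 0.32 ± 0.12 (adjusted p = 0.035) and Rps6kb1, the S6 kinase, by 0.34 ± 0.11 (adjusted p = 0.00914). Deptor and Tsc1, which restrain mTORC1, rose by 0.33 and 0.33 (adjusted p = 0.0384 and 0.0229). Pdcd4, an inhibitor of initiation, fell by 0.32 (adjusted p = 0.0416). Larp1, which binds TOP mRNAs, stood at -0.04 ± 0.12 and was not called. With the GC and length trend removed, 3 of the list were called lower and 0 higher, Akt1s1 was no longer called (-0.20) and Larp4 stood at 0.13. Scaled to all reads, 12 were called lower and 0 higher. Of all tested genes, that scaling called 38.7% lower and 3.6% higher, and removal of the trend 7.48% and 6.29%.

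Genes for rescue, quality control and autophagy of ribosomes had 1 lower and 4 higher of 13. Ascc3, a helicase that splits collided ribosomes, rose by 0.99 ± 0.12 in the authors' deposited table (adjusted p = 1.39e-13). Ltn1 and Nemf, which mark and extend stalled chains on the large subunit, rose by 0.46 and 0.36 (adjusted p = 0.000738 and 0.00746). Usp16, which removes ubiquitin from the small subunit, rose by 0.35 (adjusted p = 0.00754). Zfp598, the ligase that senses collisions, fell by 0.27 (adjusted p = 0.0378). With the GC and length trend removed, Ascc3 was the one gene of the list still called, at 0.71, and Ltn1, Nemf and Usp16 stood at 0.19, 0.17 and 0.23. Scaled to all reads, 4 of the list were called lower and 1 higher, beside 38.7% and 3.6% of all tested genes. Nufip1, a receptor for ribosome autophagy in human cells, stood at 0.26 ± 0.15 and was not called.

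Markers of some other cell types also differed between the groups. The counts below stand beside 10.5% of all tested genes called lower and 10.4% higher. Of 13 tested leukocyte markers, 9 were lower, and their summed level went from 2240 to 547 normalised counts. Smooth muscle markers were lower in 5 of 5 (11626 to 5251) and theca and stroma markers in 5 of 6 (6873 to 3672). Granulosa and cumulus markers were lower in 6 and higher in 2 of 16, and their sum went from 122065 to 110265. Of 6 tested oocyte markers 0 were called, 5 were above zero and their sum went from 71 to 88, with Figla listed at 0. Of 6 erythroid markers 5 were listed at 0, and the 1 tested, Alas2, was higher (1.96). Endothelial markers had 0 of 6 called, and their sum went from 289 to 253. The part of these cells in the ribosomal protein values was not tested.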

How the data were processed

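RNA of 6 libraries, 3 labelled control and 3 labelled Atg5-KD, was measured by sequencing. The authors deposited 1 table of a DESeq2 comparison with base means (a normalised signal), log2 fold changes with standard errors, a Wald score per gene, and p-values, and gave no values per library. The submitters' processing notes name the mouse build mm10 and, with no order or role, DESeq2 1.30.1, STAR, StringTie 2.1.4 and featureCounts 1.6.2. From the file, statistics equalled fold change over error, and adjusted p-values equalled a Benjamini-Hochberg adjustment over 14835 genes (tolerance 1e-06, 0 exceptions). The count-based fit planned for raw counts was not possible, so the deposited test is the main one.

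Group means were computed from base mean and fold change. Depth was estimated from 6 size factors, read from base means shared by at least 100 genes with a single read in 1 library. They were 1.268 to 1.37 in control and 0.703 to 0.805 in Atg5-KD. No counts per library were at hand for intervals of depth, and 95% intervals are fold change ± the normal quantile times the standard error.

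Transcript length and GC content came from GENCODE vM21 on GRCm38, from the transcript of middle length in the best class (principal isoform, coding, basic). This was the last of 3 choices tried. The others were the longest, and the best supported, transcript. The second was in place when counts of called members after trend removal were first seen, and the third replaced it because annotated lengths of Rps15a and Rps20 looked too long, which it did not change. Results with all 3 are given. Trends were cubic fits with Huber weights over all tested genes, checked on simulated data. Copies were found with BLAST 2.17.0. Python 3.11.15 with pandas 2.3.3 and SciPy 1.17.1 was used.

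Members, gene lists, role groups, motifs and alternatives were chosen with earlier results of these data known. Named genes were the called members (the 8 lowest adjusted p where over 15), the 3 highest and 3 lowest fold changes, the 3 highest and 2 lowest base means of each subunit, fixed paralogs and stalk proteins, and up to 4 called genes per list. Further genes, such as Mtor, Myc, Rps6kb1, Deptor, Tsc1, Pdcd4, Larp1, Zfp598 and Nufip1, were named after their values were seen. Some single genes are not reported here, though they count in the totals.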

Additional observations from a re-analysis of the deposited data

How the results depend on the processing

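No paired analysis was possible because the table holds no values per library, although the groups share the numbers 2, 3 and 4. For the same reason a refit of counts with edgeR or DESeq2 and leaving out single libraries were not run. The medians of the large and small subunit, -0.20 and -0.23, stayed between -0.19 and -0.26 under every setting computed but scaling to all reads, which gave -0.50 and -0.53. That scaling called 42 large and 28 small subunit members, 7 ribosomal proteins outside the symbol rule, 6 elongation, 23 initiation and 9 other TOP genes, all lower. It also called 3 termination genes lower, other than the 3 higher without it, and 12 control genes lower and 0 higher, and gave -0.06 for Abce1, -0.04 for Eif5 and Etf1, -0.26 for Rpl23a and Rps27l, -0.18 for Rpl30, -0.03 for Rpl34, -0.27 for Rpl7l1 and -0.29 for Rps25 and Rps4l. Of all tested genes, scaling to all reads called 38.7% lower and 3.6% higher. Scaling to all reads but Rn45s called 4 outside the rule and 5 elongation genes, and gave 0.00 for Rpl7l1, -0.03 for Rps25 and -0.02 for Rps4l. Without Rn45s the shares of all tested genes were 12.2% lower and 9.24% higher. Under the Bonferroni adjustment 0 large and 1 small subunit member, 0 outside the rule, 1 elongation, 0 initiation, 0 termination, 0 other TOP, 1 control and 1 rescue gene were called. The Benjamini-Yekutieli adjustment called 2 and 2 members, 0 outside the rule, 0 termination, 1 other TOP, 4 control and 2 rescue genes. Of all tested genes, the Bonferroni adjustment called 2.62% lower and 2.86% higher, and the Benjamini-Yekutieli adjustment 5.9% and 5.86%. Under these stricter adjustments the share of members called was thus near that of all tested genes. At an adjusted p under 0.1, 4 outside the rule and 5 other TOP genes were called, and a log2 limit of 0.3 left 1 termination gene. Of all tested genes, 13.1% were called lower and 12.9% higher at 0.1, and 9.77% and 9.7% with the log2 limit. With the GC and length trend removed, 7 large and 7 small subunit members, 2 initiation, 0 termination, 3 control and 1 rescue gene were called, and Rpl23a stood at -0.05, Rpl30 at -0.01, Rps25 at -0.17 and Rps27l at -0.16. The choice of transcript went through 3 versions in the course of the work. With the longest transcript or the best supported one, in place of that of middle length, 8 large and 9 small subunit members were called, with 2 initiation, 0 termination, 3 control and 1 rescue gene as before. Of all genes, 7.55% were called lower and 6.21% higher with the longest one, and 7.47% and 6.19% with the best supported one. Rpl23a was then -0.07 or -0.06, Rps27l -0.18 or -0.17, and Rpl30 -0.01 with the best supported one, while Rps25 was 0.03 with either. Over all 3 choices, 6 large and 7 small subunit members were called each time. With the GC trend alone removed, 9 large and 5 small subunit members, 2 initiation, 0 termination, 5 control and 1 rescue gene were called, and Abce1 was 0.00, Rps25 -0.13 and Rps27l -0.10. With the length trend alone removed, 10 large and 9 small subunit members and 4 control genes were called, and Rps25 was -0.03 and Rps27l -0.02. Of all genes, 7.72% were called lower and 6.87% higher with the GC trend alone removed, and 10.4% and 8.51% with the length trend alone removed. With both trends removed, for the transcript of middle length, the shares were 7.48% and 6.29%. Rpl30 was -0.07 without the base mean trend, and Rps25 was 0.00 centred on the median gene. The transcript choices, single trends and scaling without Rn45s were added after seeing the data. Low counts leave wide intervals for Rpl30, Rps27 and Rpl34.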
